A study of Symphysodon aequifasciata with 2 samples.

Results

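Vasotocin and isotocin are the fish relatives of mammalian vasopressin and oxytocin. The genes for their precursors and receptors were followed in the brain of the discus, an ornamental South American cichlid (Symphysodon aequifasciatus). Members were the features of the deposited table whose symbol was avp or oxt, or whose protein match named vasotocin, isotocin, vasopressin or oxytocin. This gave 5 of the 40209 features, of which 2 were hormone precursors and 3 were pieces of receptors. None carried a gene symbol, so all 5 were found by their protein match. The brains came from 1 male and 1 female of 1 year from a breeding laboratory, killed in 100 mg/L of the anaesthetic MS-222. Poly(A) RNA was sequenced as 1 library per sex. No strain, genotype or further treatment is given in the labels. The series title states the aim of finding RNAs that differ in the discus brain, and the design gives the female against the male library as its comparison.

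With 1 fish per sex there was no replicate, no test between sexes and no p-value, so every difference below describes these 2 libraries. Effects of sex, of the single fish and of how each brain and library was handled cannot be told apart. The sex of a library follows its gender label. The sample titles start with O for the male and T for the female library, and these initials are not explained. A swap of the gender labels would turn each direction given here. Values are TPM, a relative abundance in which reads are divided by feature length and scaled to a fixed total. In the higher library of each listed feature the lowest value was 6.01 TPM. A feature below that level in 1 library is therefore listed only through its level in the other. In bulk brain RNA, fewer cells of a type and less RNA per cell cannot be told apart.

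Both hormones are made by large neurons of the preoptic area as precursors that also contain neurophysin, their carrier in the secretory granule. Convertases and an amidating enzyme release the short mature peptides, which leave nerve endings in the pituitary and within the brain. In fish, vasotocin is known for its part in water balance, stress and courtship or aggression, and isotocin for its part in social contact and parental care. Their receptors belong to the G protein-coupled family. In mammals the V1a and oxytocin receptors act through Gq and phospholipase C, and the V2 receptor acts through Gs and cyclic AMP.

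Each precursor was more abundant than any receptor feature in both libraries, and isotocin was the more abundant of the pair. Isotocin was slightly higher in the male brain and vasotocin moderately higher in the female brain. The 3 receptor features measured 6.67 to 26.68 TPM, and 1 of them, a short piece matched to the V2 receptor, was 4.0-fold higher in the female library. The other V2 piece and the oxytocin receptor piece lay within 2-fold.

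The vasotocin precursor was a feature of 830 bases, TRINITY_DN12678_c2_g7, matched to vasotocin-neurophysin VT 1 of the Nile tilapia. It measured 37.99 TPM in the male brain and 53.74 TPM in the female brain. These levels correspond to about 888 and 1154 reads, recovered from the steps between TPM values as described under processing. The female-to-male fold was 1.41, with an exact 95% interval of 1.29 to 1.55. This interval, like all others here, covers counting error alone and not the spread between fish.

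The isotocin precursor was a feature of 673 bases, TRINITY_DN12678_c2_g10, matched to an isotocin-neurophysin IT 1-like protein of an amberjack. It measured 287.04 TPM in the male brain and 253.06 TPM in the female brain, from about 4855 and 3922 reads. The male level was 1.13-fold the female level, with an interval of 1.09 to 1.18. The counting intervals of both precursors leave out 1. Against all listed features, isotocin ranked 276 in the male brain and 319 in the female brain, and vasotocin ranked 3078 and 1837. Summed, the precursors measured 325.03 and 306.80 TPM.

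The balance between the hormones can be read within each library, where scaling to a total has no effect. Isotocin measured 7.56 times the vasotocin level in the male brain, against 4.71 times in the female brain. The first of these ratios was 1.60-fold the second, with an exact conditional 95% interval of 1.45 to 1.77 for counting error.

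**Figure D1:**
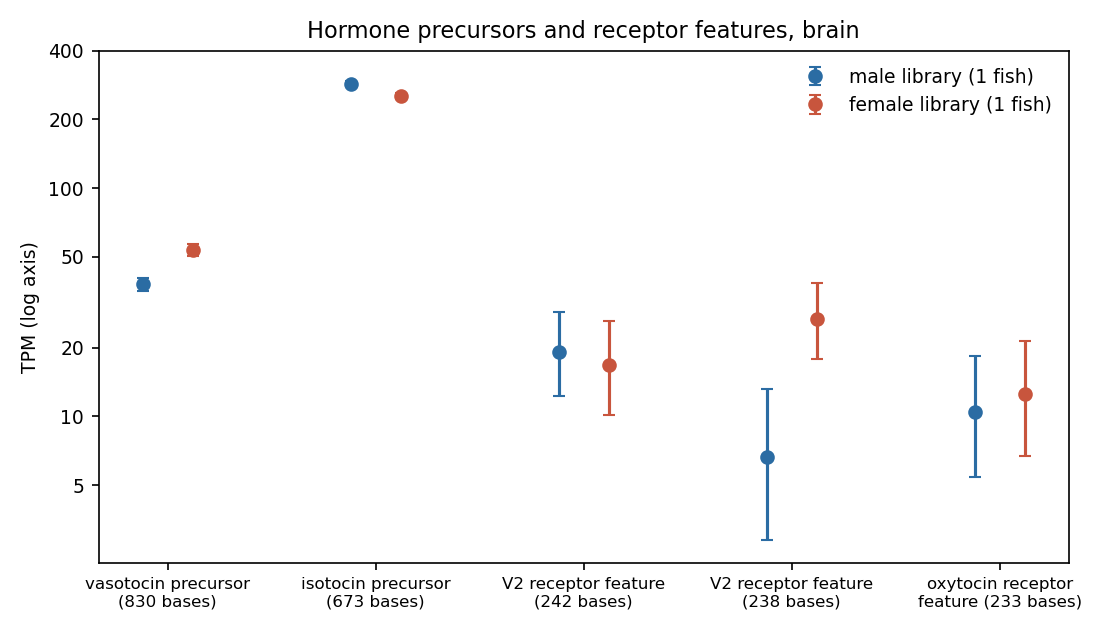
Level of each precursor and receptor feature in TPM (log axis) in the male (blue) and the female (red) library, 1 fish each, with exact 95% intervals of counting error as bars. The isotocin points, 287.04 and 253.06 TPM, stand above all others, and the intervals of the receptor features overlap between libraries except for the V2 feature of 238 bases.

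The differences of the precursors were set beside those of features of similar length. Of the 3500 features of 600 to 900 bases, a ratio of at least 2-fold on the scale of log2(TPM + 0.5) was reached towards the female library by 1.03% and towards the male by 2.60%. Neither precursor passed 2-fold. On that scale the vasotocin log2 ratio, female over male, was 0.49. This lies between the 75th and 95th percentiles of the length class, 0.25 and 0.60. The isotocin log2 ratio was −0.18, between the 25th and 75th percentiles, −0.29 and 0.25. The median of the length class was −0.003.

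The oxytocin receptor feature, TRINITY_DN13133_c1_g2, was 233 bases long and was matched to the oxytocin receptor of the zebra mbuna, a cichlid. Its second match was the isotocin receptor of a sucker fish, the receptor that isotocin binds. It measured 10.49 TPM in the male brain and 12.54 TPM in the female brain, from 12 and 13 reads. The fold was 1.20 and its interval, 0.50 to 2.87, held 1. A 2-fold difference towards the female library thus lies inside the interval and was not detectable at this depth.

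The V2 receptor match of the Nile tilapia was shared by 2 features, TRINITY_DN11792_c6_g7 with 238 bases and TRINITY_DN11792_c6_g11 with 242 bases. The feature of 238 bases measured 6.67 TPM in the male brain and 26.68 TPM in the female brain, from 8 and 29 reads. Its fold of 4.0 had an interval of 1.79 to 10.1. The feature of 242 bases, which carries part of the seven-helix receptor domain, measured 19.23 and 16.82 TPM, from 24 and 19 reads. Its male-to-female fold was 1.14, with an interval of 0.60 to 2.21 that held 1.

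The measured values of the V2 pieces lay on opposite sides of equal, but for the piece of 242 bases the counting interval leaves the direction unsettled. The level of the feature of 242 bases over that of 238 bases was 2.88 in the male brain and 0.63 in the female brain, a 4.57-fold difference with an interval of 1.55 to 14.1. Summed, they measured 25.90 TPM from 32 reads in the male brain and 43.50 TPM from 48 reads in the female brain, 1.68-fold higher in the female. Whether they are pieces of 1 gene or of 2 related genes is not given by the files. Of the 6056 features of up to 250 bases, 11.7% passed 2-fold with the female value higher and 22.4% with the male value higher, 34.1% in all. The count of 1 of 3 receptor features past 2-fold is near this background of both directions. The log2 ratio of the feature of 238 bases, 1.92, lies above the 95th percentile of this length class, 1.53.

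**Figure D2:**
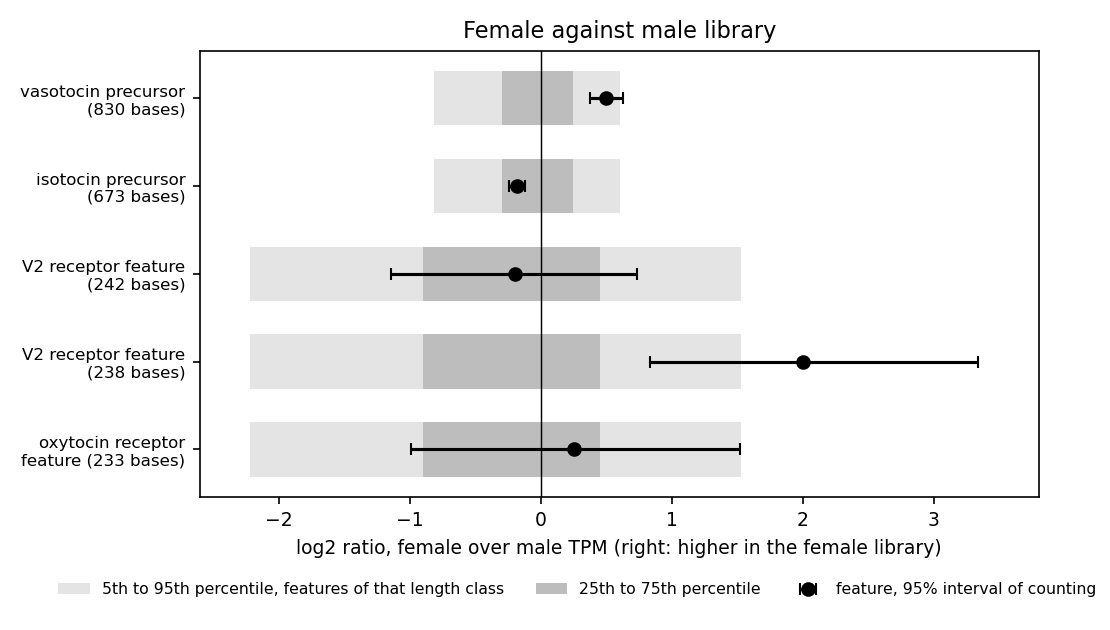
Log2 ratio of female over male TPM for each feature (points, no pseudocount) with exact 95% intervals of counting error (bars), over the 25th to 75th (dark grey) and 5th to 95th (light grey) percentiles of features of 600 to 900 bases for precursors and of up to 250 bases for receptors. The interval of the V2 feature of 238 bases, a 4.0-fold difference, is the widest to lie wholly above 0, and the precursors lie on opposite sides of 0.

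Short features carry few reads per TPM, which sets how far the receptor values can be trusted. At 233 bases 1 read was worth 0.87 TPM in the male brain and 0.96 TPM in the female brain. At 830 bases it was worth 0.043 and 0.047 TPM. Levels of receptor pieces also depend on how the length of so short a feature was corrected, so their distance from the precursors is less certain than that between the precursors. V1a-type receptors, the main vasotocin receptors of the fish brain, were not among the members and are not analysed here.

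**Figure D3:**
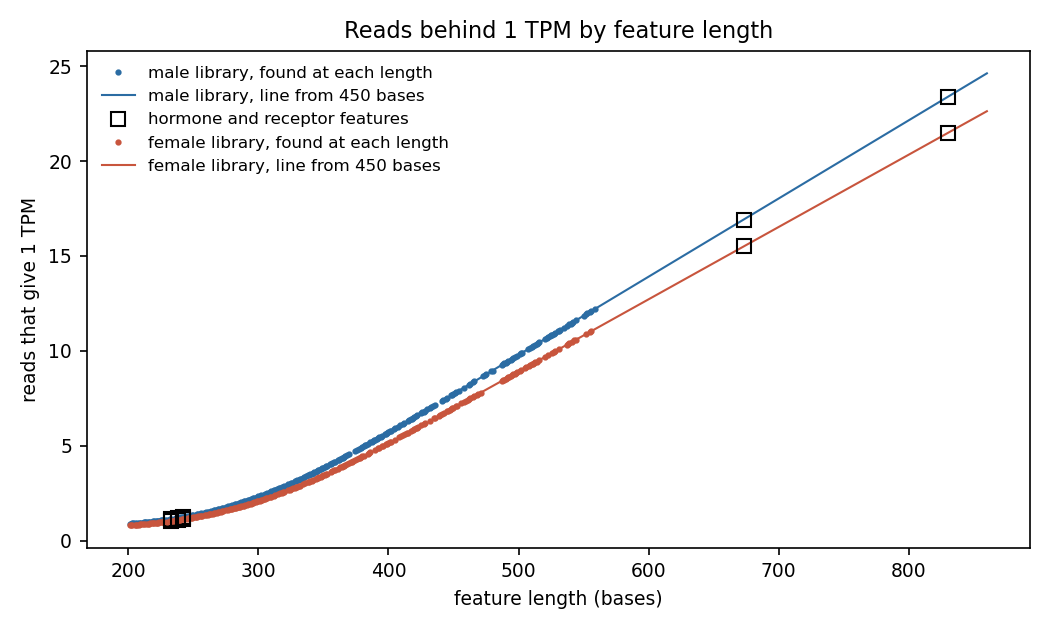
Number of reads that give 1 TPM (vertical axis) against feature length in bases, as found at each length (dots) and on the line fitted at 450 to 560 bases (lines), in the male (blue) and the female (red) library. Open squares mark the hormone and receptor features: the receptors sit near 1 read per TPM, and the precursors on the extended lines.

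Among 25 peptide genes measured, the precursors and 23 of a list of 28 other peptide genes of the preoptic area and hypothalamus, isotocin had rank 2 in both libraries. It stood between npy, the appetite peptide neuropeptide Y, and cck, cholecystokinin. In the male library npy measured 347.12 TPM and cck 226.67 TPM, and in the female library 276.92 and 199.80 TPM. The exact 95% counting intervals of these levels did not overlap that of isotocin, 279.0 to 295.2 TPM in the male and 245.2 to 261.1 TPM in the female library. Vasotocin had rank 8 in the male library. Its interval there, 35.5 to 40.6 TPM, overlapped those of its neighbours penk (proenkephalin A, an opioid precursor) at 38.45 TPM and gnrh3 at 36.08 TPM. In the female library vasotocin had rank 5, next to cartpt, an appetite peptide, at 52.63 TPM, whose interval also overlapped. Ranks use the most abundant feature of each gene, and cartpt had 5 matched features, penk 2 and cck 2. Whether adding up the features of a gene would change a rank was not tested.

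Like vasotocin, most of the other peptide genes were higher in the female library, but the most abundant of them were not. Of the 23 other peptide genes, 18 had a log2 ratio above 0, and 9 passed 2-fold towards the female library, against 5.02% of all features. None passed 2-fold towards the male library, against 10.1% of all features. Their median log2 ratio was 0.51, against −0.07 over all features. The largest ratios belonged to mch2, which encodes melanin-concentrating hormone, at 7.02 and 44.25 TPM, and to agrp, an appetite peptide, at 1.76 and 10.84 TPM. The others past 2-fold were pomca, mch, nmb, pomc, gnrh2, sst2 and gnrh1, with folds from 2.12 for gnrh1 to 5.15 for pomca. The male levels of agrp, pomca (4.40 TPM) and gnrh2 (3.89 TPM) lay below 6.01 TPM, so these genes are listed only through their female level. All 9 genes past 2-fold measured at most 21.49 TPM in the male library, the level of gnrh1. Examples closer to equal were crh, which drives the stress axis, at 24.90 and 24.91 TPM and galanin (gal) at 24.98 and 27.54 TPM. The 5 genes below 0 were npy, cck, sst1, cartpt and adcyap1, which had male ranks 1, 3, 4, 5 and 6 among the 25 peptide genes. The largest ratio towards the male library was that of adcyap1, which encodes PACAP, at 48.30 and 36.02 TPM.

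**Figure D4:**
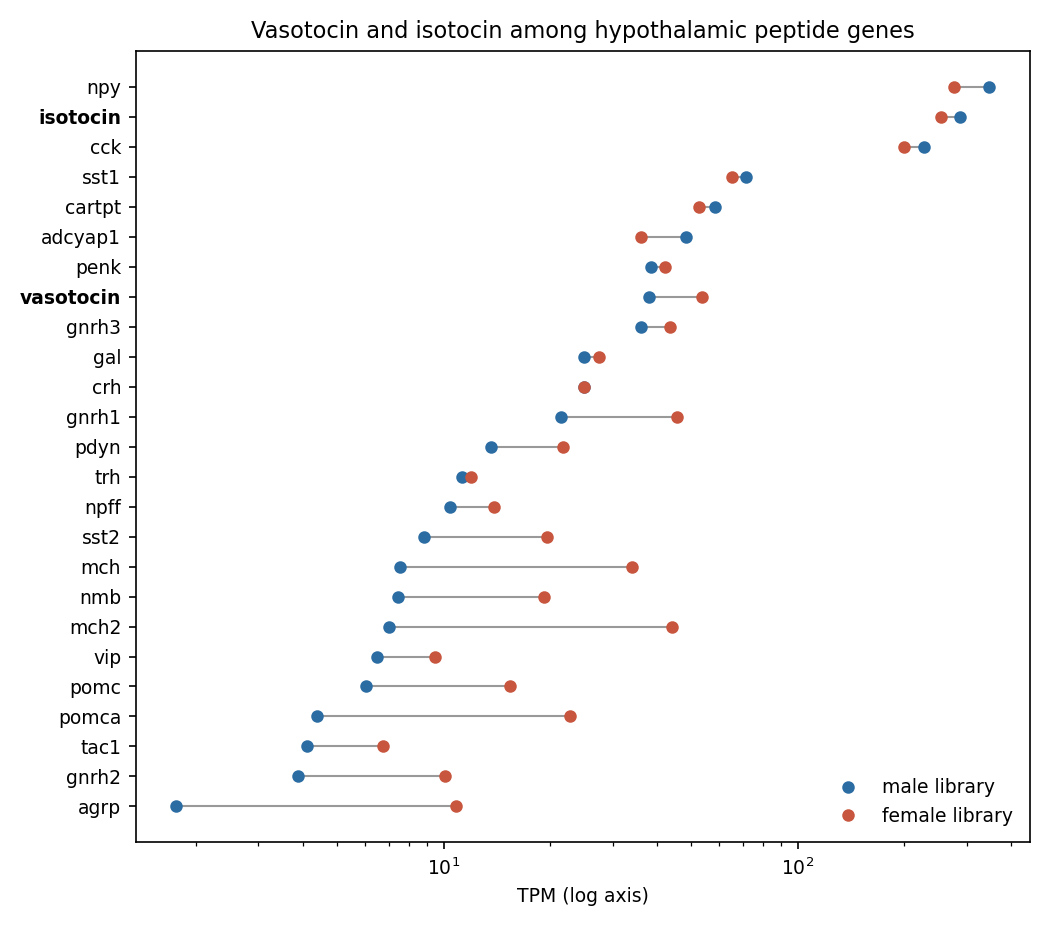
Level in TPM (log axis) of vasotocin, isotocin and 23 other peptide genes in the male (blue) and the female (red) library, sorted by the male level, each gene as its most abundant feature. Isotocin, at 287.04 and 253.06 TPM, has rank 2 in both, and vasotocin, at 37.99 and 53.74 TPM, has rank 8 in the male brain and rank 5 in the female brain.

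Of 10 genes on a list of pituitary markers, only pomc and pomca had a matched feature. Both are already counted among the peptide genes above, summing to 10.45 TPM in the male brain and 38.13 TPM in the female brain. Growth hormone, prolactin and the gonadotropin subunits had none. Blood cell markers summed to 845.4 and 1713 TPM, with 3 of 4 measured genes higher in the female library. Of these, the haemoglobin genes hbaa, at 304.58 and 643.52 TPM, and hbb1, at 519.95 and 1042.83 TPM, passed 2-fold towards the female library, as did 5.02% of all features. The part of blood in the vasotocin difference was not tested. Neuron markers, all 10 measured, had a median log2 ratio of −0.05, with 5 above and 5 below 0. One of them, elavl3, an RNA-binding protein of neurons, passed 2-fold towards the male library at 52.74 and 25.87 TPM, as did 10.1% of all features. Its feature has 1294 bases, and of the 10726 features of at least 1000 bases only 108 passed 2-fold in that direction. Radial glia markers, all 8 with a matched feature, had a median of −0.005, and none passed 2-fold. Members lay on both sides, from −0.75 for cyp19a1 to 0.59 for vim. The list names cyp19a1b, whereas the matched feature carries the symbol cyp19a1, so which aromatase gene it represents is not settled. The female level of cyp19a1, 4.97 TPM, lies below 6.01 TPM, so it is listed only through its male level. Oligodendrocyte markers, 4 of 8 measured, were all above 0 with a median log2 ratio of 0.35, and none passed 2-fold. The brain label was checked with snap25, a synaptic protein, at 2201 and 2642 TPM and gfap, a glial filament, at 217.9 and 225.8 TPM.

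On a list of 12 transcription factors chosen for preoptic neuroendocrine neurons, 6 were measured, 4 with a ratio above 0. The median log2 ratio was 0.10, against −0.07 over all features. The gene otp (orthopedia), which specifies vasotocin and isotocin neurons in zebrafish, was the member past 2-fold. Towards the female library so were 5.02% of all features and 11.7% of those of up to 250 bases, which are shorter than the otp feature. That feature, 1 of 2 matched to otp, has 273 bases and measured 4.05 and 10.92 TPM from 7 and 17 reads. Its fold was 2.70, with an interval of 1.06 to 7.69. As the male level lies below 6.01 TPM, the feature is listed only through its female level. Among other genes of the list, sim1 had no matched feature, and arnt2 and pou3f2 were closer to equal than otp. For arnt2, at 34.04 and 27.48 TPM, the female-to-male fold was 0.81, with an interval of 0.76 to 0.85. This gene was thus higher in the male library, unlike otp. For pou3f2, at 7.21 and 7.44 TPM, the interval of 0.84 to 1.26 held 1. The most abundant gene of the list was crebl2 at 41.09 and 52.87 TPM. Whether crebl2 belongs to these neurons in the discus was not tested.

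Of 15 genes that cut, amidate and store peptide precursors, 14 were measured and none passed 2-fold. Of these 14, 3 lay above and 11 below 0. Their median log2 ratio was −0.08, close to the −0.07 of all features. The convertase pcsk1 measured 27.71 and 20.54 TPM and the amidating enzyme pam 12.59 and 9.20 TPM, the latter the largest ratio towards the male library. The granule protein scg3, secretogranin-3, led towards the female library, at 62.60 and 109.26 TPM, a fold of 1.75 with an interval of 1.69 to 1.81. The most abundant member was chgb, secretogranin-1, at 882.1 and 804.7 TPM.

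On the receptor side, 23 of 31 genes on a list for Gq and Gs signalling were measured, 9 above and 14 below 0. Their median log2 ratio was −0.15, against −0.07 over all features. The list also holds gnai1 and gnao1, which encode subunits of Gi and Go. Phospholipase C beta, the enzyme that Gq activates, was represented by plcb1 at 22.01 and 23.43 TPM and plcb4 at 26.53 and 28.97 TPM. The Gq subunit gnaq measured 15.70 and 13.59 TPM and the Gs subunit gnas 9.15 and 7.76 TPM. The calcium channel gene itpr2 was the member past 2-fold, towards the male library, as were 10.1% of all features. On a feature of 284 bases, 1 of its 3 features, it measured 19.45 and 1.14 TPM from 38 and 2 reads. The female-to-male fold was 0.06, with an interval of 0.007 to 0.23. As the female level lies below 6.01 TPM, this feature is listed only through its male level. Towards the female library the largest ratio was that of gna14, at 5.90 and 10.80 TPM from 25 and 41 reads on a feature of 361 bases. Its fold was 1.83, with an interval of 1.09 to 3.14. As its male level lies below 6.01 TPM, gna14 is listed only through its female level. The most abundant member was gnai1 in the male library, at 70.30 and 43.30 TPM, and prkca in the female library, at 51.23 and 46.45 TPM.

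Of 20 genes for the breakdown and release of peptides, 13 were measured, 4 above and 9 below 0. The median log2 ratio was −0.09, close to the −0.07 of all features. On the scale of log2(TPM + 0.5) none passed 2-fold, but prepl, an enzyme related to prolyl endopeptidase, was at −0.99 there and past 2-fold without the pseudocount, with a female-to-male fold of 0.47 and an interval of 0.23 to 0.91. The oxytocin-cleaving aminopeptidase lnpep measured 7.13 and 6.66 TPM, and cd38, which oxytocin release needs in mice, measured 17.40 and 19.66 TPM. The largest ratios were those of prepl, at 8.36 and 3.96 TPM from 33 and 14 reads, and of syt1, a calcium sensor of vesicle release, at 80.58 and 64.55 TPM. As the female level of prepl lies below 6.01 TPM, its feature is listed only through its male level.

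Of 7 steroid receptor and aromatase genes, 5 were measured, 1 above and 4 below 0, with a median log2 ratio of −0.63. That median is the value of nr3c1, from 21 and 12 reads on a feature of 269 bases. Its fold interval, 0.28 to 1.35, held 1, as did that of esr1, 0.41 to 1.28. The gene above 0 was nr3c2, which had the most reads, 967 and 964, and a log2 ratio of 0.10. The androgen receptor ar measured 24.53 and 10.17 TPM from 24 and 9 reads on a feature of 214 bases, a female-to-male fold of 0.41 with an interval of 0.17 to 0.92. It passed 2-fold towards the male library, as did 10.1% of all features and 22.4% of features of up to 250 bases. Aromatase (cyp19a1) measured 8.69 and 4.97 TPM from about 551 and 291 reads, a female-to-male fold of 0.57 with an interval of 0.49 to 0.66. The female levels of cyp19a1 and esr1 (5.66 TPM) lie below 6.01 TPM, so these features are listed only through their male level.

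Features most like the precursors were sought among 8291 with a symbol and at least 1000 bases, by the distance of their log2(TPM + 0.5) over the 2 libraries. Nearest to vasotocin were dlg1l, GTPBP4 and Rgcc, at distances of 0.07, 0.08 and 0.08. Among the nearest to isotocin were Itm2a and hsp90ab1, both at a distance of 0.06. With 2 libraries such nearness says only that the pairs of values are alike.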

How the data were processed

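The labels describe TruSeq libraries from poly(A) RNA, with paired-end sequencing. Tools named in the submitters' processing notes are Salmon, edgeR, cutadapt and FastQC, each without a version or role. Identifiers are written as the Trinity assembler writes them, and a genome build is not given in the sources used here. The deposited values are TPM, per feature, made by the authors, with 1 column per library, and lengths are in bases. The deposited TPM sum to 937828 (male) and 943014 (female).

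Ratios are log2((female TPM + 0.5) / (male TPM + 0.5)), and folds are TPM ratios without a pseudocount. No filter was applied. A feature was called apart at 2-fold on the log2(TPM + 0.5) scale. Most low TPM values of features of one length lay close to whole multiples of a common step, taken as the worth of 1 read. A read here is the unit counted, which may be a read pair. That worth was searched at each length below 450 bases. From 450 bases, reads per TPM followed a line in length, fitted on lengths of 450 to 560 bases. At lengths of 201 to 380 bases, 95.5% of 13326 male and 95.2% of 15041 female values under 30 reads lay within 0.1 of a whole number. At 561 to 650 bases, outside the fit, 78.5% of 409 and 71.6% of 550 values under 100 reads did, against 20% by chance. The precursors, with 673 and 830 bases, lie beyond these checked lengths, so their reads rest on the extended line. Reads in listed features came to about 26830000 (male) and 24660000 (female). Intervals are exact at 95% (Clopper-Pearson for folds, Poisson for levels, conditional for ratios of folds). Duplicate reads, if any, make these intervals too narrow.

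List genes were matched by symbol, or by protein name where a feature had no symbol, and 10 kinds of match to another protein were left out on names alone. Each gene is its matched feature with the highest mean, and a gene without one counts as not measured. Genes named are all members, the extremes and the most abundant gene of each list, genes past 2-fold, nearest features (some items are not reported here) and a few added as examples after their values were seen. The members and lists were chosen with earlier results of these data known. Procedures were tested on simulated data. There, reads per TPM of longer features were set on a straight line in length. The simulation therefore could not test whether the fitted line holds at the lengths of the precursors. Software was SciPy 1.17.1, NumPy 2.4.6, Matplotlib 3.10.9 and pandas 2.3.3 under Python 3.11.15.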

Additional observations from a re-analysis of the deposited data

How the results depend on the processing

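Pseudocounts of 0.1 and 1 TPM, or centring on the median of long features, left the log2 ratios of all 5 features within their counting intervals. Centring on the median of all features moved isotocin from −0.18 to −0.11, outside its interval. Adding up the V2 pieces moved the log2 ratio of the piece of 238 bases from 1.92 to 0.74, and that of the piece of 242 bases from −0.19 to 0.74. With the worth of 1 read taken at 380 bases, the bounds nearest 1 were 1.16 for vasotocin and 0.95 for isotocin, on the same side of 1 as before. The counts past 2-fold over the table, 2019 (female) and 4075 (male), came to 40 and 108 among features of at least 1000 bases (fewer features tested; the rest of the cause was not tested), and stayed within 1.5 times under the other settings tried. List medians of few genes can move: that of the 5 steroid genes went from −0.63 to −0.31 with features summed per gene and to −0.93 with a minimum of 10 TPM. The medians of neuron and radial glia markers, −0.05 and −0.005, turned to 0.02 and 0.07 when centred on all features. No paired analysis was possible because each sex has 1 library. Leaving out a replicate was not possible for the same reason.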

Other observations

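The precursors share the identifier stem TRINITY_DN12678_c2, a group of features that the assembler joined, with 7 other features. Among these are 2 features matched to the kinase-binding protein TBKBP1, which is unrelated to the hormones. The longer of them measured 24.13 and 21.26 TPM in the male and female library. A further 4 have no protein match. The most abundant of these 4, with 585 bases, measured 31.81 and 35.96 TPM, and the one of 525 bases measured 12.66 and 4.77 TPM from 137 and 47 reads. As its female level lies below 6.01 TPM, the feature of 525 bases is listed only through its male level. Whether any of the unmatched features is an untranslated piece of a hormone transcript was not tested.

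The V2 receptor pieces share the stem TRINITY_DN11792_c6 with 6 other features, 3 of them without a protein match. The unmatched feature of 227 bases measured 16.59 and 8.14 TPM, from only 18 and 8 reads and without a counting interval. Its value was lower in the female library, where that of the V2 piece of 238 bases was higher. The matched ones are for ARPC5, MACROD1 and GRIN2A, so a shared stem does not place features in 1 gene. The oxytocin receptor feature is alone under its stem.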
